A study of Mus musculus with 12 samples.

Results

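The classical genes of bile acid synthesis in the liver, together with the repressor SHP, were followed in calorically restricted (CR) and control (Con) male mice. The set held 10 genes, namely Cyp7a1, Cyp7b1, Cyp8b1, Cyp27a1, Akr1d1, Hsd3b7, Baat, Slc27a5, Amacr and Nr0b2, the gene of SHP. They were taken by symbol from the table of 24537 genes, and all 10 were among the 10593 genes tested, which had at least 1 FPKM (fragments per kilobase of exon, scaled to library depth) in at least 3 libraries. All animals were C57Bl/6J males without a transgene, 6 weeks old at the start, caged singly and given heavy water for the last 4 days before they were killed. Con mice ate NIH41 diet ad libitum. CR mice got a fortified NIH41 diet once a day at midday, 30% below the Con intake. Livers of 3 Con and 3 CR mice were sequenced after 25 days and of 3 and 3 others after 30 days, so that each of the 12 libraries was 1 mouse. The question of the design was how the CR liver differed from the Con liver on either side of a change placed between these days. The hour of killing is not given in the sources used here.

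Bile acids are made from cholesterol in hepatocytes. In the classical route CYP7A1 takes the first and rate-limiting step, and in the alternative route CYP27A1 oxidizes the side chain before CYP7B1 hydroxylates the ring. CYP8B1 adds the hydroxyl group that makes cholic acid, ring and side-chain enzymes complete the molecule, and SLC27A5 and BAAT join it to taurine or glycine. Bile acids activate the nuclear receptor FXR, which induces SHP, a repressor of CYP7A1 and CYP8B1, and in the ileum induces FGF15, which acts on the liver through FGFR4 and beta-Klotho.

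RefSeq promoters of the GRCm38.p6 build, the same assembly as mm10, were at hand for 5 of the 10 genes, namely Cyp8b1, Cyp27a1, Akr1d1, Hsd3b7 and Nr0b2. The 250 bases before the start sites of Cyp8b1 and Nr0b2 are shown because these genes gave the largest fall and the largest rise of the set. They are written 5′ to 3′ on the strand of the gene and overlapped no annotated exon. The Cyp8b1 window is chr9:121916306-121916555 on the minus strand and the Nr0b2 window is chr4:133553126-133553375 on the plus strand. Capitals mark matches to 4 motifs that were chosen after the sequences had been seen and were searched on both strands.
Cyp8b1: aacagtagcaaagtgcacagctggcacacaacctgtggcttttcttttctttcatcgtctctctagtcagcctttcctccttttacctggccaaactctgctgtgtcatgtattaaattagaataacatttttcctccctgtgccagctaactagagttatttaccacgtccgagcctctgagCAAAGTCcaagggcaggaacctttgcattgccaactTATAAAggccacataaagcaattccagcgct
Nr0b2: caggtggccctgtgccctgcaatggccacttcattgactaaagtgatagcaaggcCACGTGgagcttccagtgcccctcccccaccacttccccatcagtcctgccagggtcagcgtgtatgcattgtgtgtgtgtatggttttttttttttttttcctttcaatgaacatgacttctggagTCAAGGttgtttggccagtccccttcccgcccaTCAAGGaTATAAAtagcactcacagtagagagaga
The HNF4-specific element core CAAAGTC stood 67 to 61 bases before the Cyp8b1 start, and 3.84% of 32851 mouse promoters of the same length held it. The Nr0b2 window held the core TCAAGG, known from sites of the receptor LRH-1, at 68 to 63 and at 35 to 30 bases before its start, against 12.5% of promoters with at least 1 match. It also held the E-box CACGTG at 195 to 190 bases, which 6.02% of promoters had. A TATA box, TATAAA, lay 31 to 26 bases before the Cyp8b1 start and 28 to 23 bases before the Nr0b2 start, and 12.4% of promoters contained these letters. In the other 3 windows the 4 motifs matched once, TCAAGG on the opposite strand of Akr1d1 at 213 to 208 bases. Only these exact letters were searched. The letters CCAAGG, which differ from TCAAGG in the first base and can be read in the Cyp8b1 window, were not searched for. The Cyp8b1 and Nr0b2 matches do not overlap each other within a window.

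In mm10 the genes lie on 7 chromosomes. Cyp8b1 is a single exon at chr9:121914356-121916305 on the minus strand, and Nr0b2 has 2 exons at chr4:133553376-133556686. Chromosome 4 also carries Cyp7a1, with 6 exons at chr4:6265612-6275631, and Baat, with 4 exons at chr4:49489418-49506558. Cyp7b1 has 6 exons at chr3:18071950-18243338 and Cyp27a1 has 9 exons at chr1:74713535-74737897. Hsd3b7 has 7 exons at chr7:127800609-127803802, and Slc27a5, on the same chromosome, has 10 exons at chr7:12988346-12998192. Akr1d1 has 9 exons at chr6:37530173-37568815 and Amacr 5 exons at chr15:10981756-10996624. Of the 1828 exon bases that GENCODE gives Hsd3b7, 811 also lie in exons of the opposite-strand gene 9430064I24Rik and 1717 in the same-strand gene Gm49388. These genes were not analysed here and the strand of the reads is not given, so their fragments cannot be told apart from those of Hsd3b7. No exon of the other 9 genes was shared with another gene of that annotation.

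Recovered from the steps of the FPKM values, depth ranged from 15748722 to 23345546 reads a library, of which 78.1 to 84.3% were on exons. Marker genes were counted as higher or lower in CR mice by the test given below. By that test 5.6% of all genes were higher and 9.34% lower at day 25, and 8.33% and 16.4% at day 30. Hepatocyte markers were high throughout and were at a summed 52520 to 63670 FPKM in CR mice of day 30 against 35670 to 44550 in Con mice, with 3 of 5 genes higher at that day. At day 25 the sums were 49490 to 52820 in CR and 43120 to 50030 in Con mice, with 1 of 5 higher. Of 6 Kupffer cell and macrophage markers, 3 were lower in CR mice at day 25 (summed 18.0 to 23.1 against 25.3 to 46.9 FPKM) and 1 was higher at day 30. Of 4 stellate cell markers, 1 was higher at day 25 (72.5 to 80.5 against 60.9 to 67.4 FPKM in sum) and 2 at day 30 (76.3 to 92.2 against 52.7 to 68.2). The same counts held for 4 endothelial markers, with sums of 33.5 to 43.2 against 26.5 to 39.4 FPKM at day 25 and 34.6 to 41.0 against 26.7 to 29.7 at day 30. Of 3 erythroid markers 1 was lower at each day, within sums of 160.5 to 856 FPKM that overlapped between the diets. Cholangiocyte, lymphocyte and pancreas markers summed to at most 4.12, 1.36 and 1.34 FPKM, and neither of the 2 that reached the filter passed. The intestinal list summed to 33.6 to 66.4 FPKM, nearly all of it Fabp2, with Vil1 at 0.138 FPKM at most, while Fgf15 was listed at 0 in all 12 libraries. The part of these shifts in the values below was not tested, and in whole liver fewer cells of a type cannot be told apart from less RNA per cell.

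Livers of CR mice had less Hsd3b7 and Baat RNA at both days, less Cyp8b1 and Cyp7b1 RNA at day 30 and more Nr0b2 RNA at day 25. Differences between CR and Con mice were tested with limma on log2(FPKM + 1) and called at a Benjamini-Hochberg adjusted p under 0.1 over all 10593 genes. At day 25, 3 of the 10 genes were called, with Hsd3b7 and Baat lower and Nr0b2 higher. Of all genes tested 14.9% were called at that day, 5.6% higher and 9.34% lower. At day 30, 5 genes were called, with Cyp7b1, Cyp8b1, Hsd3b7 and Baat lower and Akr1d1 higher, against 24.7% of all genes (8.33% higher and 16.4% lower). With both days in 1 model and day as a covariate, 8 of the 10 passed, against 40.6% of all genes (14.5% higher and 26.1% lower). The 5 lower genes were Cyp7a1, Cyp7b1, Cyp8b1, Hsd3b7 and Baat, the 3 higher were Akr1d1, Slc27a5 and Nr0b2, and Cyp27a1 and Amacr did not pass. A change of 1 or more on the log2 scale, in either direction, was also met by Hsd3b7 and Nr0b2 at day 25 (1.48% of all genes), and by Cyp7b1, Cyp8b1 and Hsd3b7 at day 30 (2.21%) and over both days (1.66%). The median log2 fold change of all genes was -0.04 at day 25, -0.07 at day 30 and -0.05 over both days.

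**Figure D1:**
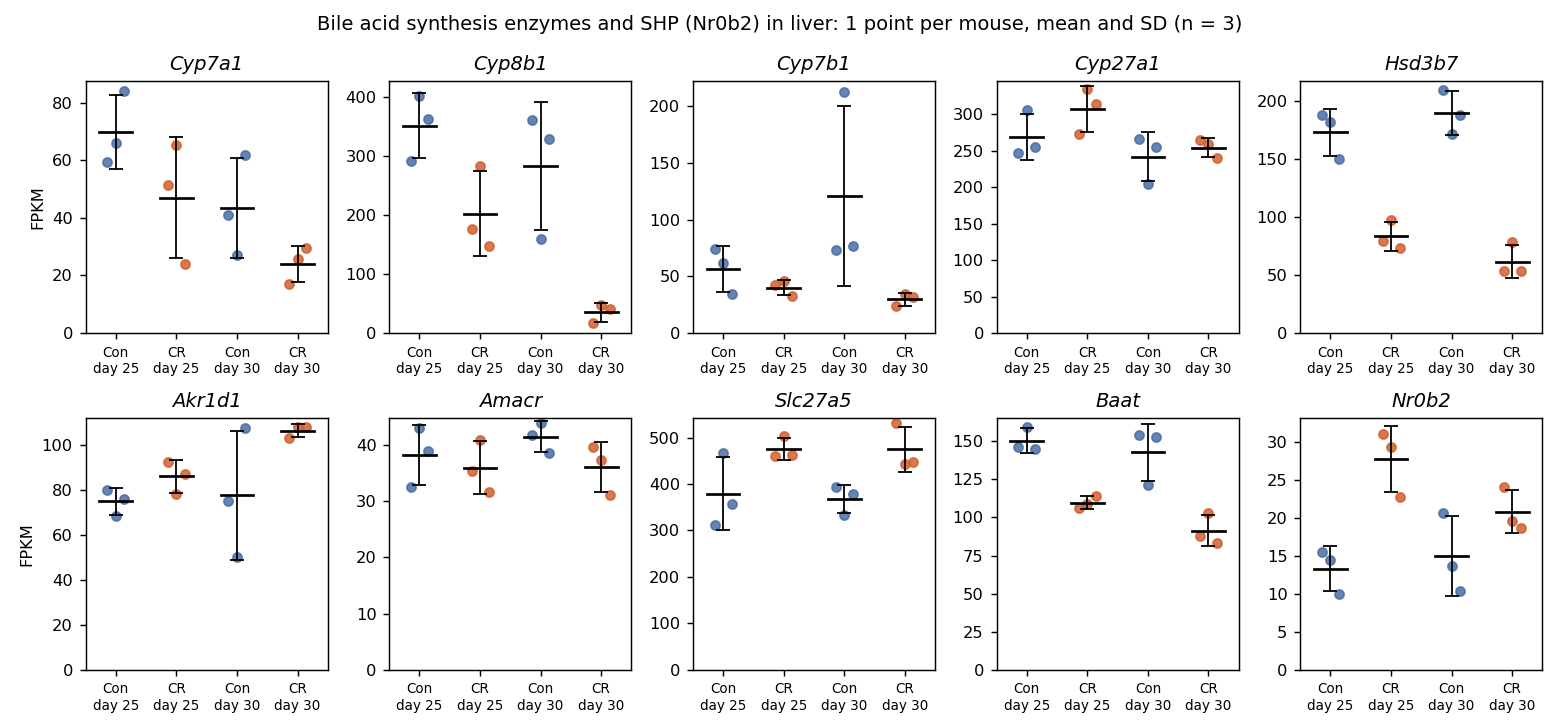
FPKM of the 10 genes in each of the 12 libraries, by diet and day; points are mice, black lines the group means and bars the SD (n = 3), and each panel starts at 0. Cyp8b1 lay between 17.4 and 47.3 FPKM in the CR mice of day 30 and between 147 and 402 FPKM in the other mice.

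Counted by overlap, the CR mice lay wholly on one side of the Con mice for 4 of the 10 genes at day 25, with Cyp8b1, Hsd3b7 and Baat below and Nr0b2 above. Across all genes tested 28.2% had groups that did not overlap at that day. At day 30 the same held for 5 genes, with Cyp7b1, Cyp8b1, Hsd3b7 and Baat below and Slc27a5 above, against 36.4% of all genes. Over both days all 6 CR mice were below all 6 Con mice for Hsd3b7 and Baat, against 12.5% of all genes.

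Cyp8b1, the sterol 12-alpha-hydroxylase that sets the share of cholic acid, showed the widest range of the set. Its FPKM were 292, 402 and 362 in the Con mice of day 25 and 176, 284 and 147 in the CR mice of that day. At day 30 they were 361, 160.0 and 329 in Con mice and 17.4, 47.3 and 40.8 in CR mice. The groups did not overlap on either day, and every CR mouse of day 30 was below every CR mouse of day 25. The CR mean was 57.4% of the Con mean at day 25 and 12.4% at day 30. At day 25 the log2 fold change was -0.84 (SE 0.38, adjusted p = 0.190), short of the threshold although unadjusted p was 0.0453, and it passed when the libraries of that day were fitted alone (adjusted p = 0.0747, from 0.0747 to 0.435 over the alternatives). At day 30 Cyp8b1 fell by 3.01 on the log2 scale (SE 0.38, adjusted p = 4.47e-04), an 8.03-fold lower level. Recovered reads on Cyp8b1 ranged from 791 to 14461 a library, so counting error was small beside the spread between mice.

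Cyp7a1, the rate-limiting enzyme of the classical route, was lower in CR mice with a wider overlap. Con mice of day 25 had 59.4, 65.9 and 84.1 FPKM and CR mice 51.5, 65.2 and 24.0. At day 30 Con mice had 40.9, 27.2 and 61.7 FPKM and CR mice 17.0, 25.6 and 29.4. A single CR mouse lay inside the Con range at each day and the others were below it. The log2 fold change was -0.66 (SE 0.35, adjusted p = 0.266) at day 25 and -0.78 (SE 0.35, adjusted p = 0.147) at day 30, neither past the threshold. Over both days Cyp7a1 fell by 0.72 (SE 0.24, adjusted p = 0.0359), a 1.65-fold lower level. Without the Con mouse of day 30 that had 27.2 FPKM, the day 30 difference was -1.07 and passed (adjusted p = 0.0798, from 0.0798 to 0.407 over all alternatives). Without the Con mouse of 61.7 FPKM it was -0.49 at day 30, and without the CR mouse of 24.0 FPKM it was -0.25 at day 25.

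Of the alternative route, Cyp27a1, the mitochondrial sterol 27-hydroxylase, stayed within a narrow band. It was at 246, 305 and 255 FPKM in Con and 273, 335 and 314 FPKM in CR mice of day 25. At day 30 the values were 266, 204 and 255 FPKM in Con and 264, 259 and 240 FPKM in CR mice. Its log2 fold change was 0.19 (95% confidence interval -0.09 to 0.48) at day 25, 0.08 (-0.21 to 0.37) at day 30 and 0.14 (-0.06 to 0.33, adjusted p = 0.263) over both days, and the last passed under median-ratio scaling (0.20, adjusted p = 0.0782, from 0.0782 to 0.708 over the alternatives).

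Cyp7b1, the oxysterol 7-alpha-hydroxylase that follows it, was called at day 30 and not at day 25. Con mice of day 25 were at 74.4, 61.4 and 34.1 FPKM and CR mice at 42.2, 45.6 and 32.5. At day 30 Con mice were at 73.4, 213 and 76.5 FPKM and CR mice at 23.5, 34.2 and 31.8. The groups overlapped at day 25 and were apart at day 30, when 1 Con mouse stood far above the other 2. The day 25 difference was -0.43 on the log2 scale (SE 0.37, adjusted p = 0.511). At day 30 Cyp7b1 was lower by 1.81 in CR than in Con mice (SE 0.37, adjusted p = 0.00654), a 3.52-fold lower level. The Con mean was 56.6 FPKM at day 25 and 121 FPKM at day 30, and the CR mean was 40.1 and 29.8 FPKM. Between the days the log2 difference was 0.97 in Con (adjusted p = 0.587) and -0.42 in CR mice (adjusted p = 0.783), neither past the threshold. The Con mouse with 213 FPKM was also the lowest of its group for Cyp7a1, Cyp8b1, Cyp27a1, Hsd3b7, Akr1d1, Baat and Slc27a5, and without it the Cyp7b1 difference was -1.32 and still passed.

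Hsd3b7, which oxidizes the ring after 7-alpha-hydroxylation in both routes, was lower at both days. Con mice of day 25 had 188, 182 and 150.2 FPKM and CR mice 79.7, 97.3 and 73.1. Con mice of day 30 had 209, 172 and 188 FPKM and CR mice 53.3, 78.4 and 53.3. No CR mouse of either day reached the lowest Con mouse. Hsd3b7 fell by 1.05 (SE 0.16, adjusted p = 0.0031) at day 25 and by 1.62 (SE 0.16, adjusted p = 9.47e-05) at day 30, or 2.07-fold and 3.08-fold. These values carry the overlap with 9430064I24Rik and Gm49388 given above.

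Akr1d1, the 5-beta-reductase that acts next on the ring, went the other way. In CR mice it was at 92.5, 78.2 and 87.2 FPKM at day 25 and at 103, 108 and 108 FPKM at day 30. In Con mice it was at 80.0, 68.5 and 76.1 FPKM at day 25 and at 74.9, 50.3 and 107 FPKM at day 30. The groups overlapped on both days, and the Con mice of day 30 were spread from 50.3 to 107 FPKM. The difference was 0.20 (SE 0.20, adjusted p = 0.590) at day 25 and 0.52 (SE 0.20, adjusted p = 0.0995) at day 30, just past the threshold. It was lost at day 30 in 13 of 18 alternatives, and without the Con mouse of 50.3 FPKM it was 0.24 (adjusted p = 0.327, from 0.00967 to 0.327 over the alternatives). Over both days it was 0.36 (SE 0.14, adjusted p = 0.0752) and was lost in 13 of 24 alternatives.

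Amacr, the racemase of the side chain, did not pass at either day or over both. It was at 32.5, 43.1 and 39.0 FPKM in Con and 35.4, 40.9 and 31.6 FPKM in CR mice of day 25, and at 41.9, 44.0 and 38.7 FPKM in Con and 39.6, 37.4 and 31.1 FPKM in CR mice of day 30. Its difference over both days was -0.14 on the log2 scale (95% confidence interval -0.34 to 0.05, adjusted p = 0.248), and it passed when libraries were scaled to equal sums (-0.17, adjusted p = 0.0928, from 0.0928 to 0.484 over the alternatives).

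The last pair of enzymes, which conjugate the finished acid, moved in opposite directions. Slc27a5, the bile acid CoA ligase, was at 313, 466 and 358 FPKM in Con and 461, 503 and 463 FPKM in CR mice of day 25. At day 30 it was at 393, 334 and 378 FPKM in Con and 531, 444 and 448 FPKM in CR mice. Of the CR mice of day 25, 1 of 3 lay above all Con mice of that day, and at day 30 all 3 did. The difference was 0.35 (SE 0.14, adjusted p = 0.155) at day 25, 0.36 (SE 0.14, adjusted p = 0.101) at day 30 and 0.35 (SE 0.10, adjusted p = 0.0147) over both days, so that only the last passed. At day 30 it passed in 6 of 18 alternatives (adjusted p from 0.0394 to 0.304). With the replicate number as a block at day 25, where same-numbered mice deviated together, Slc27a5 also passed at day 25 (adjusted p = 0.0984, from 0.0426 to 0.427 over the alternatives). Without the Con mouse of 466 FPKM it was 0.50 at day 25 (adjusted p = 0.0426), and without the Con mouse of 313 FPKM it was 0.22 (adjusted p = 0.427).

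Baat, the bile acid CoA amino acid N-acyltransferase, was lower at both days. Its FPKM in Con mice were 146, 160.0 and 145 at day 25 and 154, 121 and 153 at day 30. In CR mice they were 106, 109 and 114 at day 25 and 87.9, 103 and 83.6 at day 30. All 6 CR mice were below all 6 Con mice. Baat fell by 0.45 (SE 0.12, adjusted p = 0.0334) at day 25 and by 0.63 (SE 0.12, adjusted p = 0.00405) at day 30, or 1.37-fold and 1.55-fold. At day 25 the call was lost without the first CR mouse, of 106 FPKM (-0.43, adjusted p = 0.1003, from 0.00722 to 0.1003 over the alternatives).

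Nr0b2, which encodes the repressor SHP, was the lowest gene of the set and the one gene called at least 2-fold higher. Con mice of day 25 were at 15.6, 14.4 and 9.98 FPKM and CR mice at 31.1, 29.4 and 22.8. Con mice of day 30 were at 20.7, 13.8 and 10.4 FPKM and CR mice at 24.2, 19.7 and 18.8. At day 25 every CR mouse was above every Con mouse, while 1 Con mouse reached into the CR range at day 30. Nr0b2 rose by 1.02 on the log2 scale (SE 0.22, adjusted p = 0.0148) at day 25, a 2.02-fold higher level, and at day 30 the difference was 0.50 (SE 0.22, adjusted p = 0.144). Over both days it rose by 0.76 (SE 0.17, adjusted p = 0.00461). Without the Con mouse of day 30 that had 20.7 FPKM, the day 30 difference was 0.75 and passed (adjusted p = 0.0354, from 0.0354 to 0.432 over the alternatives), and without the Con mouse of 10.4 FPKM it was 0.28 (adjusted p = 0.432). Its recovered reads, 215 to 843 a library, were the fewest of the set.

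**Figure D2:**
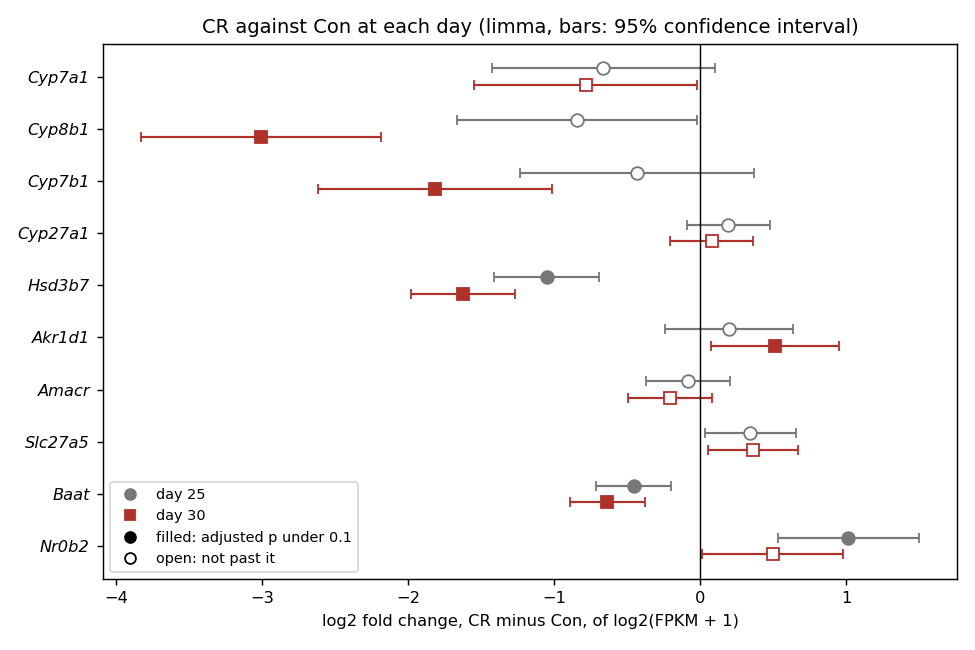
Log2 fold change of CR against Con (x axis, log2(FPKM + 1) scale) of the 10 genes at day 25 (circles) and day 30 (squares), with 95% confidence intervals; filled symbols passed the adjusted p of 0.1. Hsd3b7 and Baat were past it on both days, and the interval of Cyp8b1 at day 30 ran from -3.83 to -2.19.

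Between the days, Cyp8b1 was the one gene of the set called within a diet. From day 25 to day 30 it fell by 2.55 on the log2 scale in CR mice (SE 0.38, 95% confidence interval -3.37 to -1.73, adjusted p = 0.031), a 5.85-fold lower level, and ranked 6 of 10593 genes by p. Of all genes 0.321%, or 34, were called within CR. The call was lost without the first CR mouse of day 25 (-2.62, adjusted p = 0.117) or of day 30 (-2.12, adjusted p = 0.106), and adjusted p ranged from 0.0106 to 0.134 over the alternatives. Within CR the differences were -0.86 for Cyp7a1 (adjusted p = 0.490), -0.44 for Hsd3b7 (adjusted p = 0.431), -0.42 for Cyp7b1 (adjusted p = 0.783) and -0.39 for Nr0b2 (adjusted p = 0.640). Unadjusted p within CR was under 0.05 for 917 genes (8.66%), 4 of the 10 among them. These were Cyp8b1, Cyp7a1, Hsd3b7 and Baat (-0.26, adjusted p = 0.550). Within Con none of the 10 passed limma's test and neither did any other gene, with 0% of all genes called against 765 genes at unadjusted p under 0.05, 1 of the 10 among them, and 0 genes by voom. The largest Con values were 0.97 for Cyp7b1 (adjusted p = 0.587) and -0.74 for Cyp7a1 (adjusted p = 0.683), and Cyp8b1 was at -0.38 (adjusted p = 0.838).

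Whether the CR effect itself differed between the days was tested as an interaction, and none of the 10 genes passed, against 0.00944% of all genes. That share is 1 gene, the small nucleolar RNA Snord55 (-1.68, adjusted p = 0.0833), named after its value was seen. The Cyp8b1 effect was 2.16 lower on the log2 scale at day 30 than at day 25 (SE 0.53, 95% confidence interval -3.32 to -1.004), with an unadjusted p of 0.00151 that ranked 15 of 10593 but an adjusted p of 0.826, and adjusted p ran from 0.394 to 1.00 over the alternatives. At unadjusted p under 0.05 stood 366 genes, 3 of the 10 among them, which were Cyp8b1, Cyp7b1 (-1.38) and Hsd3b7 (-0.57). The Nr0b2 effect differed by -0.52 (95% confidence interval -1.20 to 0.16) and that of Cyp7a1 by -0.12 (-1.20 to 0.95). The calls of Cyp8b1 and Cyp7b1 at day 30 and not at day 25 were therefore not shown to differ between the days.

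Ratios within a library do not depend on its scaling and are given as a description with no test. The FPKM of Cyp8b1 was 4.30 to 6.10 times that of Cyp7a1 in Con mice of day 25, 3.41 to 6.13 times in CR mice of day 25 and 5.34 to 8.85 times in Con mice of day 30. In CR mice of day 30 it was 1.03 to 1.85 times, below all other mice. Hsd3b7 stood at 0.590 to 0.763 of Cyp27a1 in Con mice of day 25 and 0.736 to 0.841 at day 30. In CR mice the ratio was 0.233 to 0.292 at day 25 and 0.202 to 0.302 at day 30, so the ranges of CR and Con were apart on both days and those of the CR days overlapped. The ratio of Cyp7b1 to Cyp7a1 overlapped between diets, at 0.405 to 1.25 in Con and 0.700 to 1.35 in CR mice of day 25 and 1.24 to 7.82 in Con and 1.08 to 1.39 in CR mice of day 30.

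**Figure D3:**
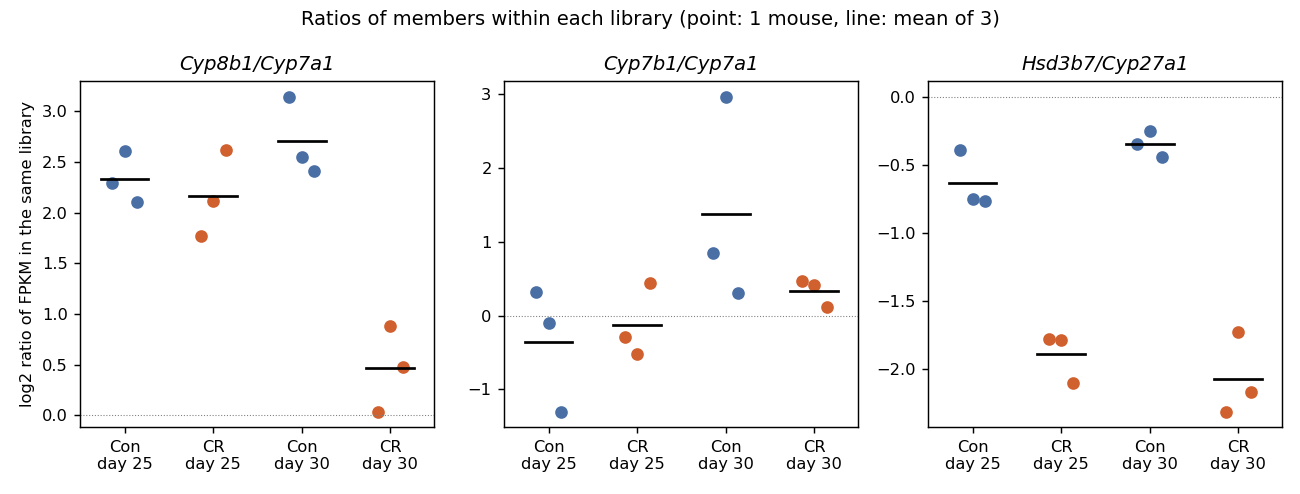
Log2 ratio of the FPKM of pairs of these genes within each library, by diet and day; points are mice and lines are means of 3. For Cyp8b1 over Cyp7a1 the CR mice of day 30 lay between 0.04 and 0.89, and all others were at 1.77 or above.

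Per length, the mean FPKM over the 12 libraries put Slc27a5 first at 424, followed by Cyp27a1 at 268, Cyp8b1 at 218, Hsd3b7 at 127 and Baat at 124. Below these came Akr1d1 at 86.1, Cyp7b1 at 61.9, Cyp7a1 at 46.0, Amacr at 37.9 and Nr0b2 at 19.2. The order depended on diet. In Con mice of day 30 Cyp8b1 had a mean of 284 FPKM (SD 108) and Amacr 41.5 (SD 2.70), and in CR mice of that day Cyp8b1 had 35.2 (SD 15.7) and Amacr 36.0 (SD 4.44), which did not differ beyond their spread.

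Genes with the most similar course over the 12 libraries were those with the smallest mean absolute difference of log2(FPKM + 1) after centring. For Cyp8b1 they were Csad, which makes hypotaurine on the way to taurine, at 0.437, the male-biased fatty acid elongase Elovl3 at 0.484 and the urinary protein gene Mup3 at 0.641, where Cyp8b1 itself deviated by 1.13 from its mean. Csad averaged 156 and 117 FPKM in Con and CR mice of day 25 and 156 and 30.0 FPKM at day 30. For Cyp7a1 they were Bhmt at 0.301, Nat8f2 at 0.329 and Mug1 at 0.330, against its own 0.621. Cyp7b1 was followed by Arl2bp at 0.232, Sort1 at 0.263 and Aox3 at 0.264, against 0.656. Nr0b2 was followed by Trim7 at 0.191, Kiss1 at 0.213 and Hip1r at 0.217, against 0.409. Kiss1 lay close to the filter of 1 FPKM, where log2(FPKM + 1) understates changes. Its means were 0.38 and 1.35 FPKM in Con and CR mice of day 25 and 0.51 and 0.79 FPKM at day 30. Trim7 was also low, at 3.27 and 6.91 FPKM at day 25 and 2.95 and 4.81 FPKM at day 30.

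Other genes of the pathway were read from lists chosen by function. Shares of all genes tested stand beside the counts of this and the following lists. They were 14.9% called at day 25 (5.6% higher and 9.34% lower) and 24.7% at day 30 (8.33% and 16.4%). Over both days the share was 40.6% (14.5% higher and 26.1% lower). Of 14 further enzymes and carriers of bile acid synthesis, 13 were tested, and 4 were higher and 1 lower at day 25, 4 higher and 4 lower at day 30, and 5 higher and 4 lower over both days. The median log2 fold change of the list was 0.19 at day 25 and -0.07 at day 30, against -0.04 and -0.07 for all genes. Por, the reductase that feeds electrons to microsomal P450 enzymes such as CYP7A1, CYP7B1 and CYP8B1, rose by 1.40 over both days (adjusted p = 5.17e-05). Cyp39a1, a 7-alpha-hydroxylase of 24-hydroxycholesterol, rose by 1.27 (adjusted p = 6.78e-04). Cyp2c70, which makes the muricholic acids of mice, rose by 0.57 (adjusted p = 0.0199). Of the 4 that fell over both days, named after their values were seen, Acox2, the peroxisomal oxidase of the side chain, fell by 0.91 (adjusted p = 1.79e-05), Scp2, the thiolase and sterol carrier, fell by 0.64 (adjusted p = 0.00622), Hsd17b4 fell by 0.29 (adjusted p = 0.00876) and Slc27a2 fell by 0.23 (adjusted p = 0.0807).

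Of 13 regulators, 4 were higher and 1 lower at day 25 and over both days, and 3 were higher and 1 lower at day 30. The medians were -0.01 at day 25, -0.06 at day 30 and -0.04 over both days. Ppargc1a, a coactivator induced in fasting, rose by 0.92 (adjusted p = 0.00166) and Nr1i2, the xenobiotic receptor PXR, by 0.79 (adjusted p = 6.96e-05) over both days. Nr1h4, which encodes FXR, was at 79.8 and 74.3 FPKM in Con and CR mice of day 25 and 73.9 and 65.5 FPKM at day 30 (-0.15 over both days, adjusted p = 0.236). Nr5a2, which encodes LRH-1, was at -0.15 (adjusted p = 0.162) and Fgfr4 at -0.11 (adjusted p = 0.275), neither past the threshold. Klb, which encodes beta-Klotho, fell by 0.51 (adjusted p = 0.018) at day 25 and by 0.31 (adjusted p = 0.0885) at day 30.

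Among 13 FXR targets and transporters, 11 were tested, with 2 higher and 1 lower at day 25, 2 and 3 at day 30 and 3 and 3 over both days (medians 0.01, -0.28 and -0.10). Abcb11, the export pump for bile salts and an FXR target, fell by 0.46 over both days (adjusted p = 0.0112). The activity of FXR was not tested. Slco1a1, an uptake carrier that is also in the male-biased list, fell by 1.26 (adjusted p = 0.096), and Abcg5, a subunit of the sterol exporter, rose by 0.57 (adjusted p = 1.25e-04). Of 8 genes of sterol supply none passed at day 25 and 3 were lower at day 30 (medians 0.04 and -0.36). Hmgcs1, an early enzyme of cholesterol synthesis, fell by 0.75 over both days (adjusted p = 0.0514).

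Lists of clock and sex-biased genes moved in the same livers, and their part in the values of the 10 genes was not tested. Of 12 clock genes tested, 3 were higher and 2 lower at each day and 6 higher and 2 lower over both days (medians 0.27, 0.12 and 0.18). Nr1d1, which encodes the repressor REV-ERB alpha, fell by 2.32 (adjusted p = 1.85e-08) and Cry1 rose by 1.55 (adjusted p = 2.71e-06). Of 10 male-biased genes, 6 were lower at day 25, 10 at day 30 and 9 over both days, and none was higher (medians -1.76, -3.55 and -2.72). Serpina1e fell by 4.61 (adjusted p = 0.00127) and Selenbp2 fell by 4.27 (adjusted p = 0.00152) over both days. Of 5 female-biased genes tested, 2 were higher at day 25 and 5 at day 30 and over both days (medians 0.88, 2.88 and 1.46). Among them Cyp2b9 rose by 6.05 over both days (adjusted p = 5.72e-07).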

How the data were processed

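Liver RNA-Seq of 12 mice was used. The authors sequenced 100 bp paired-end reads on a single lane, made reads with CASAVA 1.8.2, checked them with FastQC and mapped them to mm10 with BWA, and named DESeq2 for their tests. The deposited values are FPKM, which the file header gives as made with HOMER on exons, 1 transcript per gene, with no scaling between libraries. Whole reads were recovered from the FPKM steps (100% of low values within 0.1 read), and depth covers counting error only.

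FPKM were tested as log2(FPKM + 1), which understates changes of low genes, with limma 3.58.1 in R 4.3.3 (moderated, with a trend, 2-sided, Benjamini-Hochberg over 10593 genes). A model of 4 group means gave each day, the interaction and the differences between days; both days together used day as a covariate. P-values set a difference against the spread between these mice within groups, pooled over the groups and moderated over genes. Columns of Con mice at day 30 could be tied to their group but not to a sample. Same-numbered mice of day 25 deviated together from their group means (correlations of 0.106 to 0.368), and the numbers belong to different animals. At day 30 Con libraries had only a column order, and pairs made by it gave 0.0456 to 0.181. Whether these correlations exceed chance was not tested. Tested on simulated data, the fits recovered 195 of 200 changes at day 25 and at day 30 and 197 over both days. False calls among 10593 genes numbered 20, 22 and 17. The interaction and the differences between days within a diet were not part of that simulation. Recovery by size of change was not tested, so the counts give no power for the smaller differences reported here.

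The genes and lists were chosen with earlier results of these data known. All 10 genes are named, with Nr1h4, Nr5a2, Fgfr4, Klb, Abcb11, Cyp2c70, the 2 genes of each list with the largest change over both days among those called, and the 3 genes most like Cyp7a1, Cyp7b1, Cyp8b1 and Nr0b2. Some items under this rule are not reported here. Alternatives were another pseudocount, filter, scaling, trend, voom on recovered reads, a replicate block, each mouse left out and other thresholds. Tables were written with pandas 2.3.3 and numpy 2.4.6 in Python 3.11.15, and plots with matplotlib 3.10.9.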

Additional observations from a re-analysis of the deposited data

How the results depend on the processing

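Over the alternatives, 844 values kept their direction and their side of the threshold, 36 lost the threshold, 17 gained it and 8 changed sign. Hsd3b7 and Nr0b2 at day 25 and Hsd3b7, Cyp8b1 and Cyp7b1 at day 30 passed in every alternative run. Requiring a log2 change of 1 or more in size left 3 of the 10 genes at day 30 and 3 over both days. Within CR the count of 1 gene (Cyp8b1) became 0 with no filter on low values. Leaving out the mice one by one, the genes called numbered 2 to 4 at day 25, 4 to 5 at day 30, 7 to 8 over both days and 0 to 1 within CR. Leaving out a mouse changed the sign of values that had not passed, namely Amacr at day 25 (-0.19 to 0.0063), Cyp27a1 at day 30 (-0.037 to 0.154), the interaction of Cyp7a1 (-0.53 to 0.17) and Nr0b2 within Con (-0.12 to 0.34). The cause was not tested.

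Of all genes, 1582 were called at day 25 (593 higher), 2619 at day 30 (882 higher) and 4304 over both days (1536 higher). Median-ratio scaling gave 1710 (855 higher), 2587 (1326 higher) and 4242 (2166 higher), and quantile normalization 1586 (758 higher), 2469 (1252 higher) and 4034 (2040 higher), so the split of directions depends on scaling. No scaling reversed the CR effect of any of the 10 genes at either day or over both. At adjusted p under 0.05, 969 and 1740 genes were called at day 25 and day 30, and leaving out a mouse gave 893 to 1374 and 1497 to 2292. Within CR 34 genes became 8 with no filter, 54 with median-ratio scaling, 52 with voom and 2 to 26 with a mouse left out, and 7 at adjusted p under 0.05. Within Con 0 genes became up to 22, and 1 gene of the interaction became 0 to 5.

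With the replicate block at day 25, 4 of the 10 genes and 1748 genes in all were called at that day. With the replicate block at day 30 by column number, where the numbers did not pair the mice, 6 of the 10 genes and 2604 genes in all were called, Nr0b2 being added (0.50, adjusted p = 0.0801). A block over the CR mice of both days, chosen after seeing the data, kept Cyp8b1 as the 1 gene called within CR. Apart from Slc27a5 at day 25 and Nr0b2 at day 30, no block changed a call among the 10 genes. Reads per library were 1537 to 2412 for Amacr and 215 to 843 for Nr0b2, the fewest of the set.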
